A study of Mus musculus with 3 samples.

Results

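The 9 genes described here encode chemokines, the small secreted or membrane-anchored proteins that direct the movement of leukocytes and glia. They are Ccl2, Ccl3, Ccl4, Cxcl10, Cxcl12, Cxcl13, Cxcl14, Cxcl16 and Cx3cl1, taken by symbol from a table of 16610 genes. Ribosome-bound RNA of the middle section of mouse brain hemispheres was sequenced in 3 libraries, 1 per group, each a pool of 3 animals killed after 3 days. The control was the right hemisphere of animals without middle cerebral artery occlusion (MCAO, a stroke model in which a brain artery is blocked). The contralateral pool was the right hemisphere of animals that had MCAO for 1 h, and the MCAO pool (or MCAO hemisphere) was the left hemisphere of animals with the same occlusion. In all 3 groups the RNA came from RiboTag immunoprecipitation: chosen cells carry a tagged ribosomal protein, and an antibody to the tag brings down their ribosomes with the transcripts being read. Astrocytes are named in the title of the series, but the driver of the tag and the strain, sex and age of the animals are not given in the sources used here. No library of RNA that was not pulled down and no left hemisphere without MCAO was analysed here, so left and right cannot be told apart from occlusion.

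Chemokines are named by the spacing of the cysteines near their start, which divides them into the CC, CXC and CX3C groups. They act through receptors coupled to inhibitory G proteins, and some are captured by atypical receptors that do not signal through G proteins. Inflammatory chemokines such as Ccl2, Ccl3, Ccl4 and Cxcl10 are made on demand after injury, whereas Cxcl12 and Cx3cl1 are made in the healthy brain. Cxcl16 and Cx3cl1 are built as membrane proteins from which the chemokine part can be cut by the proteases encoded by Adam10 and Adam17.

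Values are normalised read counts, and every group had a single library, so differences between groups lack a replicate check and carry no p-value. Reads recovered from the values of the listed genes totalled between 25930258 and 33886604 per library. Ratios carry 95% intervals (exact Clopper-Pearson) that cover counting error only. Markers of the tissue were abundant in all 3 libraries. The 18 astrocyte markers summed to 580932 in the control pool, 602262 in the contralateral pool and 558949 in the MCAO pool, and 15 neuron markers to 376704, 334151 and 325990. The contralateral pool stood apart by 16 male germ cell genes, which summed to 1217, 14670 and 1271 in the same order. Fewer cells of a type and less RNA per cell cannot be told apart in such libraries of pooled, pulled-down RNA. Without a library of RNA that was not pulled down, the share of RNA from untagged cells is also unknown.

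The 9 chemokines fell into 2 kinds. Ccl2, Ccl3, Ccl4, Cxcl10, Cxcl13 and Cxcl16 had between 1 and 55.0 normalised counts in the right-sided pools and between 62.3 and 208 in the MCAO pool. Cxcl12, Cxcl14 and Cx3cl1 were well measured in every library and lay between 0.788-fold and 1.07-fold of the control in the MCAO pool. A gene was counted as different where log2(value + 5) differed by at least 1, which is 2-fold. By this measure 6 of 9 members were higher in the MCAO pool than in the control pool, against 4.12% of the 14906 genes with a mean of at least 20. The same 6 were higher than in both right-sided pools, against 2.58% of those genes. None of the 9 was lower than in the control pool, against 1.25%, or lower than in both right-sided pools, against 0.517%. Set against the contralateral pool alone, 6 of 9 were higher, against 3.18% of the genes, and none was lower, against 4.96%. All 9 passed the filter, but Ccl2, Ccl3, Ccl4, Cxcl10 and Cxcl13 averaged less than 20 over the right-sided pools and passed through the MCAO pool. The counts therefore describe the members and support nothing further. Relative to the control, the members had a median log2 difference of 3.21 and all genes tested one of 0.00.

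**Figure D1:**
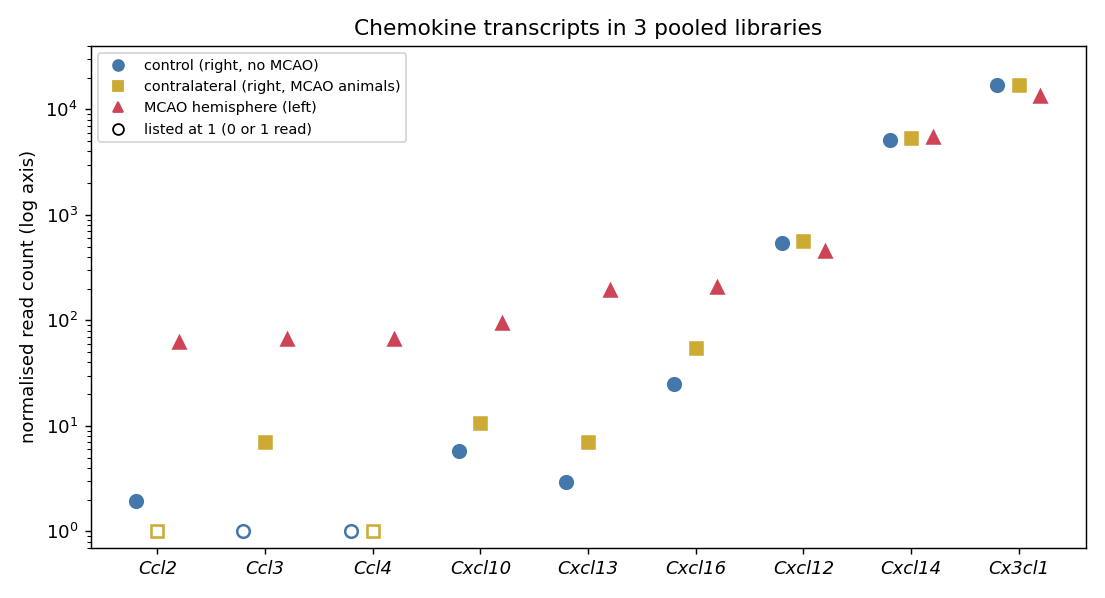
Normalised read counts (log axis) of the 9 chemokines in the pools of control, contralateral and MCAO hemispheres, 1 point per library. Open points are values listed at 1. The triangles of the left 6 genes lie at 62.3 or more, above both right-sided pools, whereas the 3 points of Cxcl12, Cxcl14 and Cx3cl1 lie close together.

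The CC chemokines attract monocytes, macrophages and T cells. Ccl2, the main attractant of monocytes through the receptor Ccr2 (on chromosome 11 from 82035577 to 82037452), had 1.94 normalised counts in the control pool, was listed at the minimum of 1 in the contralateral pool and had 62.3 in the MCAO pool. These values rested on 2 reads in the control pool and 53 in the MCAO pool. Ccl2 was thus close to the detection limit in both right-sided pools. Its MCAO value was 32.2 times the control (8.48 to 273) and 23.4 times the contralateral pool when counting 3 reads there (7.59 to 117 with the counting error of both).

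Ccl3 and Ccl4, attractants of macrophages and T cells of which Ccl3 acts through Ccr1, are neighbours on chromosome 11 (83647843 to 83649378 and 83648624 to 83664683). Ccl3 was listed at 1 in the control pool and had 7.10 normalised counts in the contralateral pool and 65.9 in the MCAO pool. Ccl4 was listed at 1 in both right-sided pools and had 65.9 in the MCAO pool. Both genes had the same 56 reads in the MCAO pool, whereas in the contralateral pool Ccl3 had 8 reads and Ccl4 had 0 or 1. Their RefSeq spans share 755 bases. The handling of strand is not given in the sources used here. Reads from that stretch may therefore have been counted for either gene, and the single values are uncertain. The MCAO value of each was 22.7 times the control when counting 3 reads there (7.37 to 113 with the counting error of both). Against the contralateral pool Ccl3 was 9.28-fold higher (4.40 to 22.5) and Ccl4, again counting 3 reads, 24.7-fold higher (8.04 to 124).

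Cxcl13, which attracts B cells through the receptor Cxcr5 (on chromosome 5 from 95956939 to 95961068), had 2.91, 7.10 and 193 normalised counts in the pools of control, contralateral and MCAO hemispheres. It had the largest difference of the 9 members and ranked 9 among the 14906 genes in the difference of the MCAO pool from the control. The ratio was 66.4 (22.3 to 325) to the control, where it had 3 reads, and 27.2 (13.5 to 64) to the contralateral pool. In the plane of both differences from the control, the 3 nearest genes to Cxcl13 were Vim, Spp1 and S100a11, at distances of 0.44, 0.56 and 0.62 in log2 units over these 3 libraries. Vim, an intermediate filament gene, had 707, 1351 and 14359 normalised counts. S100a11, which encodes a calcium-binding protein, had 28.1, 49.7 and 538. Spp1, encoding osteopontin, had 251, 487 and 8736. These 3 genes were picked for lying nearest to Cxcl13, so a pattern like that of Cxcl13 follows from the choice. The contralateral value of Cxcl13 itself rested on 8 reads against 3 in the control, a ratio whose interval (0.586 to 14.3) included 1.

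Cxcl10, an interferon-induced attractant of activated T cells through Cxcr3 (on chromosome 5 from 92346638 to 92348889), had 5.81 normalised counts in the control pool, 10.6 in the contralateral pool and 95.3 in the MCAO pool. Both right hemispheres were low, with 6 and 12 reads against 81. The MCAO value was 16.4 times the control (7.21 to 46) and 8.95 times the contralateral value (4.85 to 18). The interval of the contralateral to control ratio of 1.83 (0.636 to 5.95) included 1.

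Upstream sequence was found in the RefSeq promoter table (GRCm38.p6, the assembly called mm10) for 6 of the 9 members, namely Ccl3, Cxcl10, Cxcl12, Cxcl13, Cxcl14 and Cx3cl1. The 250 bases before the start are shown for Cxcl10 and Cxcl13, which were higher in the MCAO pool, and for Cx3cl1, which was not. Capitals mark matches to 5 motifs, searched on both strands: the kappaB consensus bound by NF-kB, the interferon-stimulated response element (ISRE) bound by interferon regulatory factors, the AP-1 site TGANTCA, the STAT site TTCNNNGAA and the TATA box TATAAA.
Cxcl10 (chr5:92348890-92349139, minus strand): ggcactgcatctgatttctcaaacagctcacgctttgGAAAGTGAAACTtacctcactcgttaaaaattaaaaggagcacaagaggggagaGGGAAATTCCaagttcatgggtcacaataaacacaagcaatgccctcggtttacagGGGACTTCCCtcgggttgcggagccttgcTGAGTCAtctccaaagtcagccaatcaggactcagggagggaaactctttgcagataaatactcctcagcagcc
Cxcl13 (chr5:95956689-95956938, plus strand): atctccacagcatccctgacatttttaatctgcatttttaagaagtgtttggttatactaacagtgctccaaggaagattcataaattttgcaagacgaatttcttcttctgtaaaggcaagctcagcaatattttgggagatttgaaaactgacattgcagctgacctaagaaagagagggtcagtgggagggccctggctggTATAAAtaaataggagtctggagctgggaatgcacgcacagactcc
Cx3cl1 (chr8:94771930-94772179, plus strand): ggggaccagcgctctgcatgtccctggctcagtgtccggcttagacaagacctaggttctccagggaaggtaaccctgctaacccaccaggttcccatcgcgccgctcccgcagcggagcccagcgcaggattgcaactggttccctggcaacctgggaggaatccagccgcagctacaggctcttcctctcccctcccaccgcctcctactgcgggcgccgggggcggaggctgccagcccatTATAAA
In Cxcl10, the capitals are, from the 5′ end, the ISRE GAAAGTGAAACT, the kappaB matches GGGAAATTCC and GGGACTTCCC, and the AP-1 match TGAGTCA, and no match overlapped another. Cxcl13 and Cx3cl1 each held only the letters TATAAA, at bases 46 to 41 and 6 to 1 before the start. The Cx3cl1 letters adjoin its start, and neither match was tested as a working TATA box. The Cxcl14 window precedes a start that lies 260 bases inside the RefSeq span of the gene, and the other windows adjoin their spans. Among the other 3 windows, Cxcl14 held a STAT site, and Ccl3 and Cxcl12 held none of the 5. Of 32851 promoter windows of the same length, 3.9% held the kappaB consensus, 0.828% the ISRE, 6.75% the AP-1 site, 7.02% the STAT site and 12.4% the TATA box. These matches describe letters, not binding, and the motifs were chosen after the members' values were known. Windows with and without matches occurred among both kinds of members.

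Cxcl16, whose membrane form also takes up oxidised lipoprotein and whose soluble form acts through Cxcr6 (on chromosome 11 from 70454389 to 70459984), had 25.2, 55.0 and 208 normalised counts in the pools of control, contralateral and MCAO hemispheres. Of the 6 higher members it had the most reads in the right-sided pools, 26 and 62, and the smallest ratio. The MCAO value was 8.27 times the control (5.46 to 13) and 3.78 times the contralateral value (2.82 to 5.14).

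**Figure D2:**
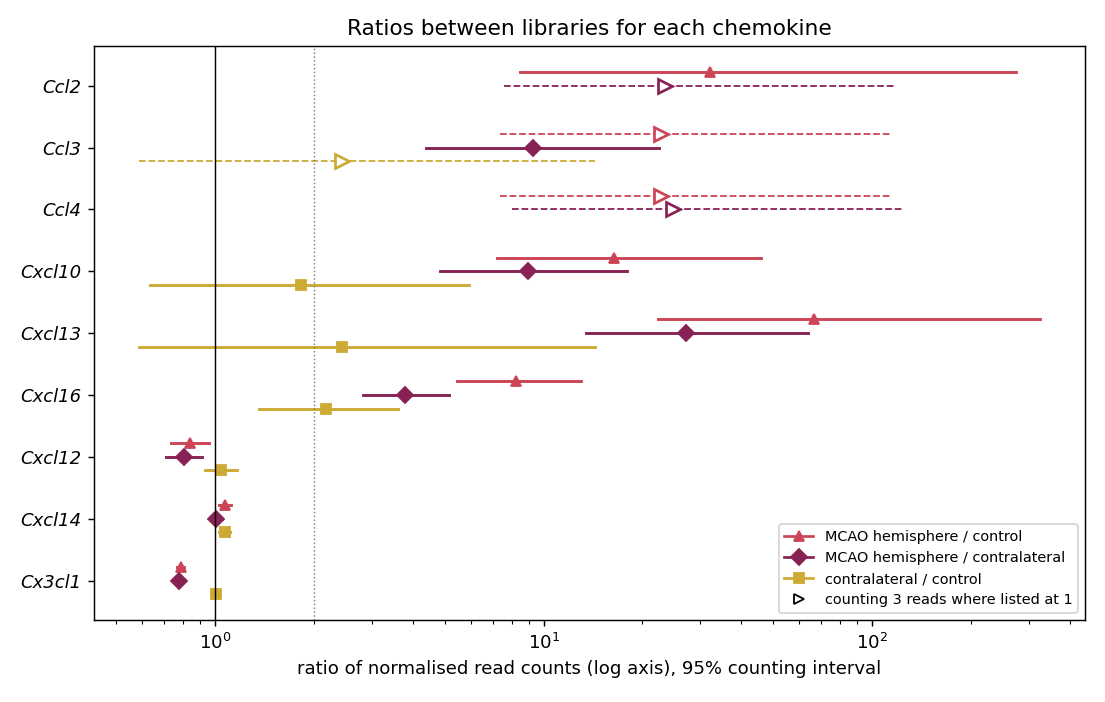
Ratios of normalised read counts between libraries (log axis) for each member, with 95% counting intervals as lines. Open arrowheads and dashed lines are ratios and intervals that count 3 reads in a library listed at 1. The solid line is a ratio of 1 and the dotted line 2. The MCAO to control ratio was 66.4 for Cxcl13 and 8.27 for Cxcl16, and it was 0.841, 1.07 and 0.788 for Cxcl12, Cxcl14 and Cx3cl1.

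The 3 members with the most reads differed from the control by less than 2-fold in the MCAO pool. Cxcl12, which acts through Cxcr4 and is captured by Ackr3 (on chromosome 6 from 117168535 to 117181368), had 545, 569 and 459 normalised counts. It was lowest in the MCAO pool, at 0.841-fold of the control (0.737 to 0.959) and 0.807-fold of the contralateral pool (0.709 to 0.916). Cxcl14, a chemokine without a settled receptor (on chromosome 13 from 56288643 to 56296811), had 5079, 5415 and 5452, which was 1.07 times the control in the MCAO pool (1.03 to 1.12) and 1.01 times the contralateral value (0.969 to 1.05). Cx3cl1, or fractalkine, a neuronal signal to microglia (on chromosome 8 from 94772180 to 94782427), had 16921, 17081 and 13331. Its MCAO value was 0.788 times the control (0.769 to 0.807) and 0.780 times the contralateral value (0.762 to 0.799). With 11333 reads or more in each library the counting error of Cx3cl1 was small, but the spread between animals was not measured. The 15 neuron markers summed to 0.865-fold of the control in the MCAO pool and to 0.887-fold in the contralateral pool. In the contralateral pool Cx3cl1 was 1.01 times the control. The part of neurons in the value of Cx3cl1 was not tested. The genes nearest to Cx3cl1 in the plane of both differences were Pla2g7, Cobll1 and Cd247. Pla2g7, which encodes a phospholipase that breaks down platelet-activating factor, had 18311, 18490 and 14482 normalised counts, at a distance of 0.0057. Cobll1 and Cd247 lay at distances of 0.01 and 0.016.

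The contralateral pool was set against the control to ask whether chemokines differed on the side opposite the occlusion. Ccl3 alone was counted as higher, 1 of 9 members, against 5.17% of all genes tested, and none as lower, against 0.362%. The Ccl3 difference of 1.01 rested on 8 reads against 0 or 1. Counting 3 reads in the control, the ratio was 2.44 with an interval (0.586 to 14.3) that included 1, and the difference with all values below 3 reads raised to that of 3 reads was 0.61, below the threshold. Cxcl16 lay just below it, with a difference of 0.99 and a ratio of 2.18 whose interval (1.36 to 3.60) did not include 1. Cxcl13 had a ratio of 2.44 (0.586 to 14.3), with 3 and 8 reads. For the 3 members with the most reads the ratios were 1.04 for Cxcl12 (0.93 to 1.17), 1.07 for Cxcl14 (1.03 to 1.11) and 1.01 for Cx3cl1 (0.989 to 1.03).

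Both Cxcl16 and Cxcl10 overlap another gene that was higher in the contralateral pool. Cxcl16 shares 552 bases with Zmynd15, a gene of developing sperm, and Zmynd15 was listed at 1 in the control pool and had 86.1 normalised counts in the contralateral pool and 5.88 in the MCAO pool. Cxcl10 lies entirely within the span of Art3 (92331799 to 92414628), an ADP-ribosyltransferase gene, which had 41.6, 148 and 35.3. Both partners were highest in the contralateral pool. There 15 of 15 male germ cell genes past the filter were higher than in the control pool, against 5.17% of all genes tested. Most of the 15 passed the filter only through the contralateral pool, such as Prm2 with 5.81, 1647 and 2.35 normalised counts. This count therefore describes these genes and supports nothing further. In the MCAO hemisphere, where Zmynd15 and Art3 had 5.88 and 35.3, Cxcl16 and Cxcl10 had their highest values. The part of Zmynd15 and Art3 in the values of Cxcl16 and Cxcl10 was not tested in any pool.

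**Figure D3:**
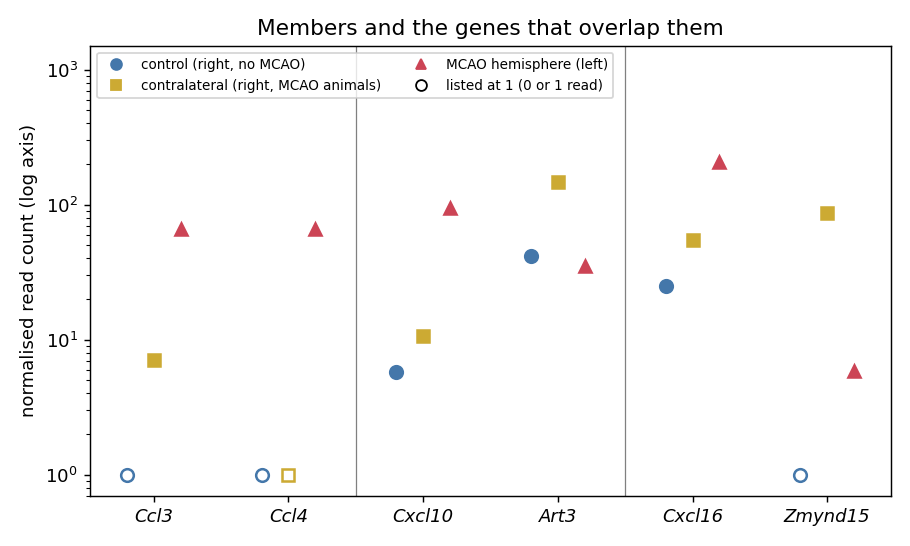
Normalised read counts (log axis) of Ccl3, Cxcl10 and Cxcl16 beside the gene that overlaps each of them (Ccl4, Art3 and Zmynd15), 1 point per library, with open points for values listed at 1. Art3 and Zmynd15 are highest in the contralateral pool, at 148 and 86.1, while the chemokines are highest in the MCAO pool.

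Receptors of the members showed differing patterns. Cx3cr1, the receptor of Cx3cl1 on microglia, had 1591, 1184 and 3464 normalised counts in the pools of control, contralateral and MCAO hemispheres, and was 2.18 times the control in the MCAO pool (2.05 to 2.31) while its ligand was lower. Cxcr4, the receptor of Cxcl12, had 84.3, 102 and 141, a ratio of 1.68 (1.26 to 2.23) that stayed under 2-fold. Ccr2, the receptor of Ccl2 on monocytes, was low throughout, with 8.72, 13.3 and 12.9 normalised counts, and its ratio of 1.48 had an interval from 0.559 to 4.05. Of 17 signalling receptors in the list, 6 were measured here and 2 passed the filter. Of these 2, Cx3cr1 alone was higher by 2-fold or more than in both right-sided pools, against 2.58% of all genes tested. Cxcr3, Cxcr5, Cxcr6 and Ccr1 were not analysed here.

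None of the 4 atypical receptors past the filter differed 2-fold from the control. Ackr3, which removes Cxcl12, had 496, 367 and 434 normalised counts, and Ackr1, which binds many inflammatory chemokines, had 863, 835 and 881. Ackr2, a scavenger of CC chemokines, had 113, 68.3 and 63.5, and was at 0.561-fold of the control in the MCAO pool (0.398 to 0.780) and 0.603-fold in the contralateral pool (0.446 to 0.811). Both libraries of MCAO animals were thus below the control for Ackr2. Of the proteases that release Cx3cl1 and Cxcl16, Adam17 had 709, 781 and 1110, a ratio of 1.57 (1.42 to 1.73), and Adam10 had 3429, 3042 and 3797, a ratio of 1.11 (1.06 to 1.16). Dpp4, which trims the start of Cxcl10 and Cxcl12, had 41.6, 35.5 and 54.1. None of the 5 sheddases and proteases past the filter differed 2-fold from the control. Mmp12, a macrophage protease that cuts several chemokines, did not pass it and had 1, 3.55 and 22.3.

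**Figure D4:**
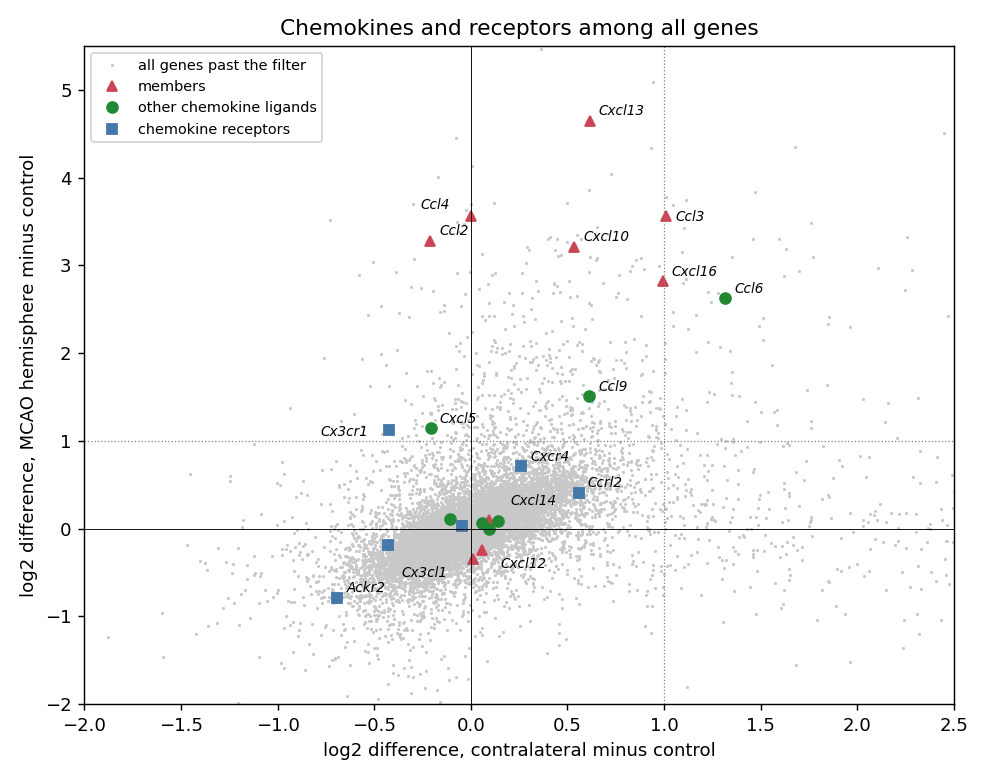
Difference in log2(value + 5) of the MCAO pool from the control (vertical) against that of the contralateral pool from the control (horizontal), for the 14906 genes past the filter (grey) with the members, other chemokine ligands and receptors among them in colour; the control library enters both axes. Dotted lines mark 1, which is 2-fold, and 449 genes lie outside the axes. The 6 higher members lie between 2.82 and 4.65 on the vertical axis, and Ccl6 is the chemokine past the filter that lies farthest to the right, at 1.32.

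Of 31 other chemokine ligands 12 were measured here and 7 passed the filter. Among these 7, Ccl6 and Cxcl5 were higher by 2-fold or more in the MCAO pool than in both right-sided pools (2.58% of all genes tested). Ccl9 was higher than in the control pool (4.12% of all genes tested), with 11.6, 20.4 and 42.3 normalised counts. The median log2 difference from the control over the 7 was 0.12. Ccl6, a chemokine of myeloid cells, had 11.6, 36.4 and 97.6, a ratio of 8.40 to the control in the MCAO pool (4.56 to 16.9) and of 3.13 in the contralateral pool (1.61 to 6.54). Cxcl5, an attractant of neutrophils, had 22.3, 18.6 and 55.3. Ccl7, Ccl11, Ccl12, Pf4 and Ccl28 did not pass the filter. Ccl12, a ligand of Ccr2, was listed at 1 in the control pool and had 5.32 in the contralateral pool and 40.0 in the MCAO pool. Ccl11, which attracts eosinophils, had 1, 1.77 and 25.9, and Ccl7, another ligand of Ccr2, had 1.94, 2.66 and 18.8. Ccl12, Ccl11 and Ccl7 had 34, 22 and 16 reads in the MCAO pool and at most 6 in a right hemisphere. Pf4, a chemokine of platelets, had 1.94, 15.1 and 9.41, and Ccl28 had 10.7, 17.7 and 11.8, so both were highest in the contralateral pool.

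Genes that act below the receptors were partly higher. Of 26 signalling genes past the filter 8 were higher by 2-fold or more in the MCAO pool than in both right-sided pools. The share over all genes tested was 2.58%, and the 26 had a median log2 difference of 0.40 from the control. This and the other lists were chosen with earlier results of these data known. The 8 included the leukocyte genes Vav1 and Dock2, which activate Rac proteins and had 109, 126 and 462, and 88.1, 113 and 356 normalised counts. The kinase gene Fgr had 7.75, 7.99 and 45.9. Rgs1, which curbs signalling of chemokine receptors and did not pass the filter, had 2.91, 2.66 and 50.6. Syndecans hold chemokines at the cell surface by their sugar chains. Of the 4 syndecans, 1 was higher by 2-fold or more than in the control pool, against 4.12% of all genes tested. This was Sdc1, with 43.6, 64.8 and 115. Of 13 inducing cytokines and transcription factors past the filter, 5 were higher than in the control pool, against 4.12% of all genes tested. Of the same 13, 3 were higher than in both right-sided pools, against 2.58%, and the median over the 13 was 0.90. Irf7, which drives interferon responses, had 13.6, 35.5 and 84.7 normalised counts. Irf8, a transcription factor of myeloid cells, had 110, 124 and 476, and Tlr2, a receptor for microbial lipoproteins, had 111, 95.8 and 399. The NF-kB subunit gene Nfkb2 had 73.6, 112 and 192. The cytokine gene Il1b, below the filter, was listed at 1 in the control pool and had 10.6 and 8.23 normalised counts in the contralateral and MCAO pools.

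Markers of myeloid cells, which are known to make several of these chemokines, were in part also higher in the MCAO pool. Of 20 microglia markers 14 were higher by 2-fold or more in the MCAO pool than in both right-sided pools, against 2.58% of all genes tested. The 20 summed to 13312 in the control pool, 13822 in the contralateral pool and 37372 in the MCAO pool. The other 6 markers were not higher by this measure. Of these, P2ry12, P2ry13, Sall1, Tmem119 and Siglech, genes of resting microglia, were between 1.03 and 1.29 times the control in the MCAO pool, and Aif1 had 79.4, 259 and 159, highest in the contralateral pool. Of 15 monocyte and macrophage markers 13 were measured, summing to 784, 1036 and 7102. Past the filter were 11, of which 9 were higher than in both right-sided pools, against 2.58% of all genes tested. The remaining pair, Mrc1 and Cd163, markers of macrophages at brain borders, were 1.92 and 1.05 times the control. No marker of either list was listed at 1 in the MCAO pool, and 1, the macrophage marker Ms4a7, was in the contralateral pool. The microglia list holds Cx3cr1 and the macrophage list Ccr2. The part of these cells in the chemokine values was not tested. Of 10 neutrophil markers 2 were measured, summing to 87.2, 111 and 331. Most of that sum was Csf3r, with 81.4, 96.7 and 314, which passed the filter, whereas S100a9, which is abundant in neutrophils, had 5.81, 14.2 and 16.5. Of 12 T and NK cell markers 1 was measured, Lck, with 66.8, 42.6 and 87.0. Of 8 B cell markers 1 was measured, Cd22, with 1.94, 1.77 and 71.8. None of the astrocyte, neuron, oligodendrocyte, endothelial, mural or choroid plexus markers past the filter differed 2-fold from the control.

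**Figure D5:**
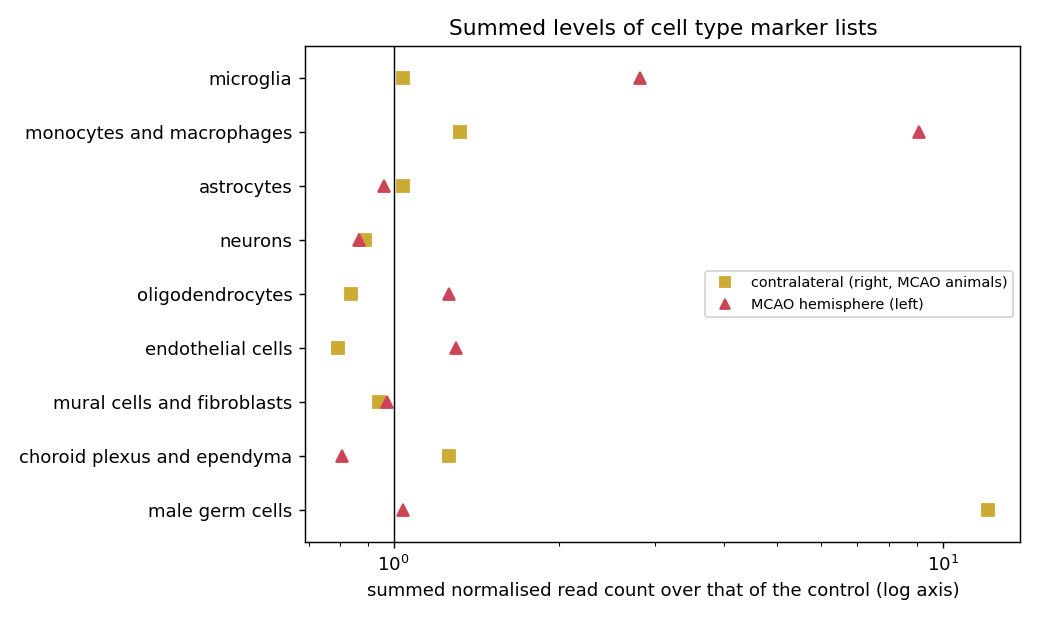
Summed normalised read counts of each cell type marker list in the contralateral and MCAO pools, divided by the sum in the control pool (log axis, 1 point per library). In the MCAO hemisphere the ratio was 9.06 for monocytes and macrophages and 2.81 for microglia, and in the contralateral pool it was 12.1 for male germ cells.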

How the data were processed

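The table holds 16610 genes and 1 column per library, matched to samples through their descriptions, with no column left unused. The authors deposited a signal: reads per gene after division by 1 size factor for each library, with anything below 1 listed as 1. CASAVA 1.8, HISAT2 2.0.11, Partek 6.6, R 3.3.1, DESeq2 and the build mm10 are named, without roles, per the submitters' processing notes. The series design gives 2 technical replicates per pool, but the table has 1 column for each.

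The value of 1 read was found in each column (0.969, 0.887 and 1.18 normalised counts in the pools of control, contralateral and MCAO hemispheres), and 99.9% of larger values gave whole reads to within 0.1. Read numbers come from this step. Reads recovered in this way over the listed genes totalled 31833456, 33886604 and 25930258, which is not the full depth of the libraries. No molecular identifiers are given, so reads may be copies of 1 molecule. A difference is one of log2(value + 5), which understates change at low levels, and 14906 genes had the mean of 20 or more that was required. Ratios were taken without the pseudocount. Where the denominator was listed at 1, a ratio counting 3 reads there is given.

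Members, lists and the rule for named genes were chosen with earlier results of these data known. All members were named, together with their receptors and sheddases, the 4 largest differences of other pathway lists, markers by size or level and the 3 genes nearest to each of 2 members. Art3, Zmynd15, Ms4a7, Pf4, Ccl28, the microglia and macrophage markers that were not higher, and Ccl9 and Cxcl5 beside the counts that hold them, were named after their values were seen. Il1b was also named outside this rule. Coordinates and sequences are from RefSeq tables for GRCm38.p6, in which 15912 symbols were found. Some genes are not reported here. The counting was tested on simulated reads, with changes planted only in genes with a mean of at least 50. No change was planted in genes as low as Ccl2, Ccl3, Ccl4 and Cxcl10, so the counting was not tested at their level. Python 3.11.15 with numpy 2.4.6, pandas 2.3.3 and scipy 1.17.1 was used.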

Additional observations from a re-analysis of the deposited data

How the results depend on the processing

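Alternatives were a pseudocount of 1 or 20, no filter or a mean of at least 50, scaling to the sum or the upper quartile of each library, and, added after the data were seen, values under 3 reads raised to that of 3 reads and leaving out the contralateral pool. With a mean of at least 50 only 5 members were left, and 2, Cxcl13 and Cxcl16, were higher in the MCAO pool than in the control pool and than in both right-sided pools. In the other alternatives the counts higher in the MCAO pool stayed at 6, with the same 6 genes. The count of members higher in the contralateral pool than in the control pool was 3 with a pseudocount of 1 (Ccl3, Cxcl13 and Cxcl16), 2 with either scaling (Ccl3 and Cxcl16), and 0 with a pseudocount of 20, with a mean of at least 50 and with values raised to 3 reads. Scaling to the upper quartile moved the median of all genes in that comparison to 0.10. The log2 difference of Cxcl13 between the MCAO pool and the control ranged from 3.22 to 5.63, that of Cxcl16 from 2.34 to 3.00, that of Ccl2 from 1.91 to 4.43 and that of Cx3cl1 from -0.34 to -0.31. No paired analysis was possible because each group had 1 library, and for the same reason no replicate could be left out. Depth limits Ccl2, Ccl3, Ccl4, Cxcl10 and Cxcl13 in the right-sided pools, where each had 12 reads or fewer.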
